A study of Mus musculus with 6 samples.

Results

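The small leucine-rich proteoglycans (SLRP) are secreted proteins built from leucine-rich repeats, and 9 of their genes are described here across 6 mouse tumours: *Aspn*, *Omd*, *Ogn*, *Lum*, *Kera*, *Dcn*, *Bgn*, *Fmod* and *Prelp*. The 9 were taken by gene symbol from tables of 23183 symbols, and all 9 were listed. Their levels in treated and untreated tumours were known when they were chosen, so their differences between the groups are given as a description, without a test. The tumours were grown from UV2237M, a single mouse fibrosarcoma line (a tumour of connective tissue cells) whose genotype is given as wild type. In 3 tumours, called treated, gold nanoclusters (GNC), metal particles of a few atoms, had been given on day 1 and day 7, with irradiation by near-infrared light (NIR). The other 3, called untreated, had received no treatment. The series title also names quercetin and docetaxel, which the sample labels do not list. The labels state neither the host mice's age, sex and strain nor when tumours were taken after irradiation. They do not say that the 3 tumours of a group came from separate animals, so errors and p-values measure the spread between these samples, which may be technical.

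SLRP proteins sit on the surface of collagen fibrils in tendon, skin, cornea and bone. Many of them carry chondroitin, dermatan or keratan sulfate chains. Some bind growth factors of the TGF-beta family, and their loss in mice makes collagen fibrils irregular. Fibroblasts and related mesenchymal cells are their usual source.

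The deposited counts summed to 5696774, 7287163 and 7915087 in treated 1, 2 and 3 and to 6564725, 4680295 and 8019294 in untreated 1, 2 and 3. Levels below are CPM, counts set against the scaled library size. Untreated 2 stood apart from the rest, with a mean root mean square distance of 1.22 log2 CPM to the other libraries, against 0.611 to 0.729 for the other 5. It is therefore shown apart, and the members' fold changes are also given without it. Of 20 fibroblast markers 19 passed the filter on low counts, and their summed level was 2891 to 3760 CPM in treated and 3719 to 4824 CPM in untreated tumours. *Tcf21* of that list had no count in any library. Whole tumours also hold host cells, and in bulk RNA fewer cells of a type and less RNA per cell cannot be told apart.

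*Aspn*, *Omd*, *Ogn*, *Lum* and *Kera* were lower in each treated tumour than in each untreated tumour, by log2 fold changes between -2.43 and -3.32. *Dcn* lay lower by a smaller margin and its groups overlapped. *Bgn*, *Fmod* and *Prelp* lay on the other side of 0, with overlapping groups. Of the 9 members, 8 passed the filter on low counts, and 6 of those had a log2 fold change below 0, as did 50.1% of all 12517 tested genes. In 5 of the 9 members the treated tumours lay below without overlap, against 10.2% of tested genes, and against untreated 1 and 3 alone it was the same 5, beside 19.9% of tested genes. Because the members were chosen on this contrast, nothing is read from these shares. The median log2 fold change of the 8 tested members was -2.45, or -1.35 without untreated 2, beside a median of 0.00 over all tested genes in both fits.

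**Figure D1:**
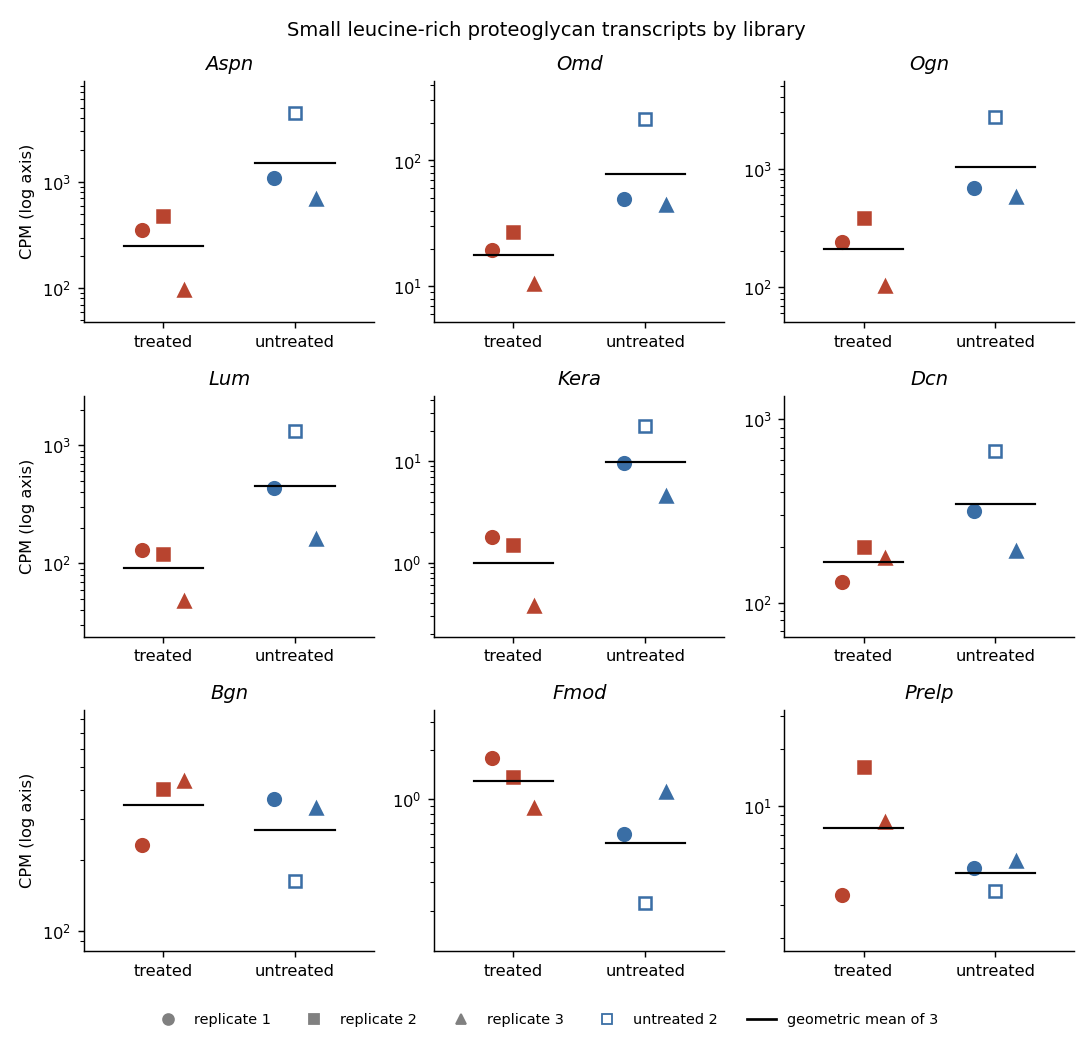
CPM of the 9 proteoglycan genes in each library (log axis, treated left, untreated right). Symbols mark the replicate number, the open square is untreated 2 and the bar is the geometric mean of 3 libraries; in the panels of *Aspn*, *Omd*, *Ogn*, *Lum* and *Kera* no treated point reaches an untreated one.

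*Aspn* codes for asporin, which binds collagen and restrains TGF-beta. It had 353, 475 and 95.6 CPM in treated 1, 2 and 3, against 1088, 4478 and 686 CPM in untreated 1, 2 and 3. Treated 3 was the lowest of the 6 and untreated 2 the highest, and the groups did not overlap. This gave a log2 fold change of -2.76 ± 0.86 (SE), or of -1.53 ± 0.54 when untreated 2 was left out.

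*Ogn* codes for osteoglycin, also called mimecan, a matrix protein first described in bone. It had 238, 379.9 and 101 CPM in treated 1, 2 and 3, against 691, 2733 and 573 CPM in untreated 1, 2 and 3. The order of the libraries was that of *Aspn*, with treated 3 lowest, untreated 2 highest and no overlap. Its log2 fold change was -2.47 ± 0.74, or -1.40 ± 0.44 without untreated 2.

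*Omd* codes for osteomodulin, a keratan sulfate proteoglycan of bone and tooth. It was scarcer, with 19.4, 27.1 and 10.4 CPM in treated 1, 2 and 3, against 49.3, 214 and 44.2 CPM in untreated 1, 2 and 3. Untreated 1 and 3 lay close together, and both lay above every treated tumour. The log2 fold change was -2.43 ± 0.70, and without untreated 2 it was -1.31 ± 0.33.

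*Lum* codes for lumican, which sets the thickness and spacing of collagen fibrils in cornea and skin. It had 129.7, 120.4 and 47.9 CPM in treated 1, 2 and 3, against 431, 1314 and 160.0 CPM in untreated 1, 2 and 3. Untreated 3 was the lowest untreated tumour and came close to treated 1. The log2 fold change was -2.68 ± 0.78, or -1.58 ± 0.48 without untreated 2.

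*Kera* codes for keratocan, the keratan sulfate proteoglycan known mainly from the cornea. Only 10, 11 and 3 counts were found in treated 1, 2 and 3, against 64, 100 and 37 counts in untreated 1, 2 and 3. These were 1.78, 1.49 and 0.372 CPM in treated 1, 2 and 3, against 9.66, 22.3 and 4.53 CPM in untreated 1, 2 and 3, so the groups stayed apart although the counting error is wide. Its log2 fold change was the most negative of the 9 members, at -3.32 ± 0.76, and -2.57 ± 0.60 without untreated 2.

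*Dcn* codes for decorin, which decorates type I collagen and binds TGF-beta. It had 130.4, 200.2 and 175 CPM in treated 1, 2 and 3, against 316, 673 and 191 CPM in untreated 1, 2 and 3. Treated 2 lay above untreated 3, so the groups overlapped. Its log2 fold change of -1.22 ± 0.46 was -0.59 ± 0.24 when untreated 2 was left out.

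*Bgn* codes for biglycan, the closest relative of decorin, which also acts on Toll-like receptors of immune cells. It had 233, 404 and 437 CPM in treated 1, 2 and 3, against 364, 163 and 333 CPM in untreated 1, 2 and 3. The groups overlapped, and untreated 2 was the lowest library here instead of the highest. Its log2 fold change was 0.32 ± 0.38, or 0.04 ± 0.24 without untreated 2.

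*Prelp*, whose product binds heparan sulfate and collagen, had 3.39, 16.2 and 8.19 CPM in treated 1, 2 and 3, against 4.68, 3.56 and 5.14 CPM in untreated 1, 2 and 3. Treated 1 was below all untreated tumours and treated 2 and 3 were above them. Its log2 fold change of 1.05 ± 0.55 was 0.38 without treated 2 and 0.92 ± 0.57 without untreated 2. *Fmod*, which codes for fibromodulin of tendon and cartilage, had 10, 10 and 7 counts in treated 1, 2 and 3, against 4, 1 and 9 counts in untreated 1, 2 and 3. It did not pass the filter, and in a fit without the filter its log2 fold change was 0.94 ± 0.70. When untreated 2 was left out *Fmod* passed the filter, and the value was 0.58 ± 0.61.

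**Figure D2:**
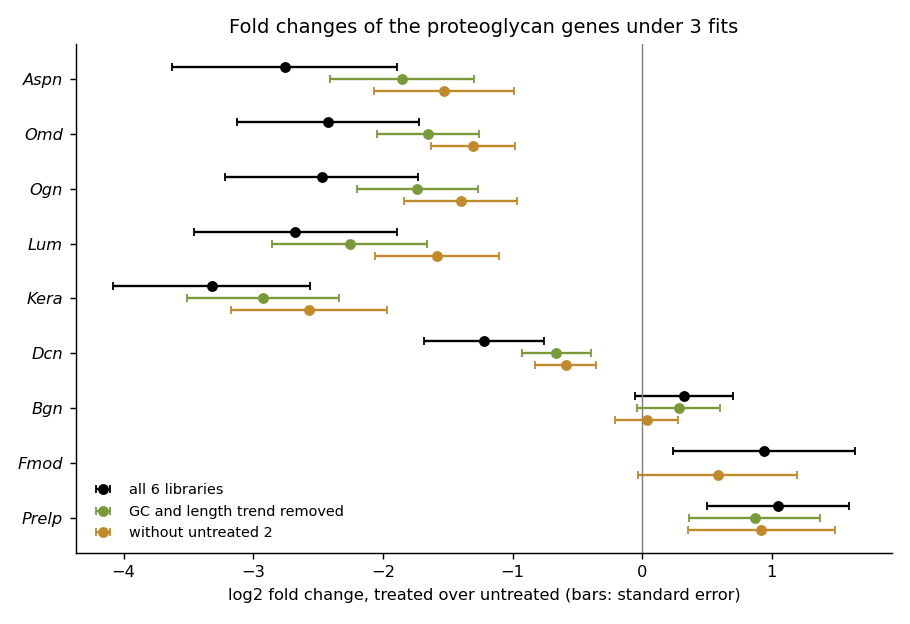
Log2 fold change, treated over untreated, of each member with its standard error, with all 6 libraries (black), after a trend with GC content and length was removed (green) and without untreated 2 (orange). The 6 genes from *Aspn* to *Dcn* stay below 0 in the 3 fits, nearer to 0 in green and orange than in black; *Fmod* was fitted without the filter on low counts in black and has no green value.

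Across all 12517 tested genes, edgeR's quasi-likelihood test called 0 genes lower and 0 higher in treated tumours at a Benjamini-Hochberg adjusted p under 0.05, a share of 0.0% in each direction, so no member was called. The smallest adjusted p of any gene was 0.592. Without adjustment, 607 genes (4.85%) were lower and 416 (3.32%) higher at p under 0.05. DESeq2 called 29 genes lower (0.232%) and 17 higher (0.136%), and *Kera* was the 1 member among them. Without untreated 2 edgeR again called 0 genes, with 1136 lower (8.85%) and 1226 higher (9.55%) before adjustment, while DESeq2 made 257 calls, 153 lower (1.19%) and 104 higher (0.81%), of which *Kera* and *Omd* were members. Since this contrast chose the members, nothing is read from these calls.

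The base composition of the transcripts moved with untreated 2. The longest transcripts of *Aspn*, *Omd*, *Ogn*, *Dcn*, *Kera* and *Lum* had a GC content of 34.3% to 41.9% and fell in the lowest of 5 equal GC bins of the tested genes. In that bin the median gene lay 0.77 log2 higher in untreated 2 than in the mean of untreated 1 and 3, with the 10th to 90th percentile of genes between -0.38 and 1.51. *Aspn*, *Lum*, *Omd*, *Ogn* and *Kera* lay 2.37, 2.32, 2.18, 2.12 and 1.68 log2 higher in untreated 2, above that range, and *Dcn* lay 1.45 higher, within it. *Bgn*, at 51.2% GC in the middle bin, lay at -1.09 where the bin's median was -0.15, and *Prelp* and *Fmod*, at 53.8% and 53.7%, lay at -0.42 and -0.93 where it was -0.42. These differences are of log2 CPM with a prior count of 3, which draws genes of few counts toward 0. The plain CPM of *Fmod* in untreated 2 was 0.261 times the mean of untreated 1 and 3. When a trend with GC content and length was removed from each library, the log2 fold changes were -1.86 ± 0.55 for *Aspn*, -1.65 ± 0.39 for *Omd*, -1.73 ± 0.47 for *Ogn*, -2.26 ± 0.60 for *Lum*, -2.93 ± 0.59 for *Kera* and -0.66 ± 0.26 for *Dcn*. The median gene of the lowest GC bin had a log2 fold change of -0.31 with all libraries and of -0.02 without untreated 2.

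**Figure D3:**
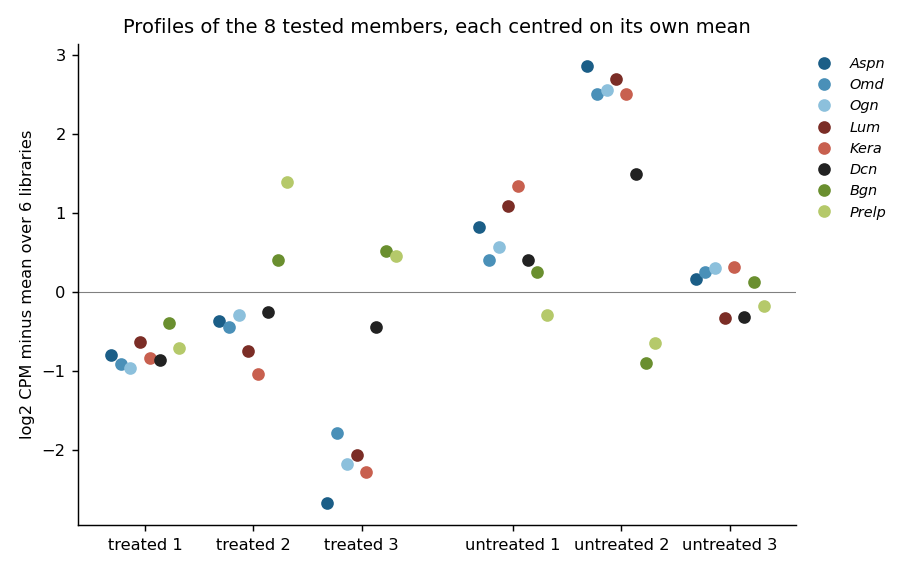
Log2 CPM of the 8 tested members in each library, each gene centred on its own mean over the 6 libraries. *Aspn*, *Omd*, *Ogn*, *Lum* and *Kera* lie together at the top in untreated 2 and at the bottom in treated 3, while *Bgn* and *Prelp* lie below 0 in untreated 2 and above 0 in treated 3.

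The members did not vary as 1 block. Likeness of a pair was measured as the root mean square difference of their centred log2 CPM over the 6 libraries, which share 1 library that stands apart. *Omd* and *Ogn* were the most alike of the 28 pairs of tested members, at 0.19, followed by *Aspn* and *Ogn* at 0.27 and *Lum* and *Kera* at 0.34. *Lum* and *Dcn* differed by 0.90, and *Aspn* and *Bgn* by 2.06. The 6 pairs on the same chromosome had a median of 0.39 and a range of 0.19 to 1.03, and the 22 pairs on different chromosomes had a median of 1.16 and a range of 0.38 to 2.11. The latter hold every pair of *Bgn* and *Prelp*, which have no tested partner on their chromosome. Pairs of a chromosome 10 and a chromosome 13 member ranged from 0.38 to 1.10. These profiles contain the contrast on which the members were chosen, and a part of gene position was not tested. For *Aspn*, *Ogn* and *Lum* the nearest gene among 10424 candidates outside the family was farther away than the nearest member, whereas 2 candidates were nearer to *Omd*, 5 to *Kera*, 61 to *Prelp*, 3919 to *Bgn* and 4169 to *Dcn*.

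The spread within the treated group also differed between members. Treated 3 had 0.231 times the mean *Aspn* level of treated 1 and 2, 0.227 times for *Kera*, 0.328 times for *Ogn*, 0.383 times for *Lum* and 0.447 times for *Omd*. *Dcn* stood at 1.06 times and *Bgn* at 1.37 times in the same tumour, with *Fmod* (0.553 times) and *Prelp* (0.838 times) in between. Skeletal muscle markers were highest in that library, at a summed 946 CPM in treated 3, against 79.7 and 24.0 CPM in treated 1 and 2 and 64.4 to 291 CPM in untreated tumours. Their part in the low values of treated 3 was not tested. Without treated 3 the log2 fold change of *Aspn* was -2.33 and that of *Kera* -2.86.

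Per length of the longest transcript, the members spanned a wide range of levels. In treated tumours *Bgn* had 134 ± 41.1 CPM per kb, *Aspn* 132 ± 83.2, *Ogn* 93.5 ± 54.3, *Lum* 40.6 ± 18.3 and *Dcn* 35.9 ± 7.53 (SD, n = 3). *Omd* followed at 8.45 ± 3.72, *Prelp* at 2.56 ± 1.78, *Kera* at 0.533 ± 0.327 and *Fmod* at 0.428 ± 0.147 CPM per kb. In untreated tumours *Aspn* had 895 ± 894 CPM per kb, *Ogn* 519 ± 473, *Lum* 259 ± 247, *Bgn* 108 ± 40.6 and *Dcn* 83.8 ± 53.3. The spread of the first 3 rests on untreated 2, and in untreated 1 and 3 the means were 381 for *Aspn*, 246 for *Ogn*, 131 for *Bgn* and 121 for *Lum*. Neighbours in the order of the treated group differed by no more than the larger SD of the pair from *Bgn* down to *Dcn* and again between *Kera* and *Fmod*, and by more than it between *Dcn* and *Omd*, *Omd* and *Prelp*, and *Prelp* and *Kera*. In the untreated group each step from *Aspn* down through *Omd* to *Kera* stayed within the larger SD, and those from *Kera* to *Prelp* and from *Prelp* to *Fmod* did not. That SD is a spread between libraries, whereas the genes were measured in the same libraries. Within every library *Aspn* lay above *Ogn*, *Ogn* above *Lum*, *Dcn* above *Omd* and *Omd* above *Kera*. The order of *Lum* and *Bgn*, and that of *Bgn* and *Dcn*, changed between untreated libraries.

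The level of *Dcn* depends on the transcript taken. Its longest annotated transcript has 4692 bases and its longest principal one 1758. With the principal transcript *Dcn* stood at a mean of 95.8 ± 20.1 CPM per kb in treated and 224 ± 142 in untreated tumours. By these means it lay above *Lum* in treated tumours and below *Lum* in untreated tumours. The untreated order rests on untreated 2, since in untreated 1 and 3 the means were 144 for *Dcn* and 121 for *Lum*. Within a library the ratio of *Bgn* to *Aspn* per length was 0.578, 0.743 and 3.995 in treated 1, 2 and 3, against 0.292, 0.0318 and 0.423 in untreated 1, 2 and 3. *Bgn* was thus the most abundant member in treated 3 and *Aspn* in the other 5 tumours. The ratio of *Omd* to *Ogn*, which needs no scaling between libraries, moved little, from 0.0815 to 0.117 in treated and from 0.0815 to 0.0892 in untreated tumours.

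Of the 9 members 8 lie near another SLRP gene, as annotated in GENCODE M21 on mm10. *Aspn* (chromosome 13, 49544443 to 49567565), *Omd* (49582462 to 49592822) and *Ogn* (49608046 to 49624501) follow *Ecm2* (49504810 to 49532789) on the same strand. *Ecm2*, whose product resembles the SLRP core proteins, had 4.28, 7.33 and 5.58 CPM in treated 1, 2 and 3, against 5.73, 6.01 and 6.12 CPM in untreated 1, 2 and 3. Its log2 fold change was -0.05 ± 0.30, with overlapping groups (edgeR adjusted p 0.960), and 0.23 after the GC and length trend was removed. The cluster lies within *Cenpp*, a centromere protein gene on the opposite strand (49464023 to 49652785), so reads of both can fall on the same bases. *Cenpp* had 19.4, 17.4 and 13.9 CPM in treated and 11.8, 38.5 and 13.8 CPM in untreated tumours, a log2 fold change of -0.33 ± 0.47 (edgeR adjusted p 0.804), or 0.39 without untreated 2. *Nol8*, the next gene after *Ogn*, had a log2 fold change of -0.17 ± 0.30 (edgeR adjusted p 0.842), or 0.18 without untreated 2.

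On chromosome 10, *Dcn* (97479609 to 97518143), *Lum* (97565128 to 97572703), *Kera* (97606879 to 97613692) and *Epyc* (97644068 to 97682454) lie in this order on the plus strand over 203 kb. *Epyc*, which codes for epiphycan of growth cartilage, had 0 counts in each treated tumour and 1 count in untreated 2, and was not tested. In this order the log2 fold changes were -1.22 ± 0.46 for *Dcn*, -2.68 ± 0.78 for *Lum* and -3.32 ± 0.76 for *Kera*. *Lum* and *Kera* differed by less than either SE, but these do not measure the spread of a difference within libraries. Per length, the ratio of *Kera* to *Lum* was 0.0148, 0.0133 and 0.00834 in treated 1, 2 and 3. It was 0.0241, 0.0182 and 0.0304 in untreated 1, 2 and 3. Without untreated 2 the log2 fold changes were -0.59 ± 0.24 for *Dcn*, -1.58 ± 0.48 for *Lum* and -2.57 ± 0.60 for *Kera*. *Lum* and *Kera* then differed by more than either SE. A trend along the row was not tested. *Btg1*, the next protein-coding gene before *Dcn*, had a log2 fold change of -0.07 ± 0.23 (edgeR adjusted p 0.929), or 0.16 without untreated 2. *Prelp* (chromosome 1, 133910304 to 133921414, minus strand) and *Fmod* (134037254 to 134048277, plus strand) span 138 kb together, and *Optc*, a further SLRP gene, is the next gene before *Prelp*. *Bgn* (chromosome X, 73483602 to 73495933) has no SLRP gene beside it.

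**Figure D4:**
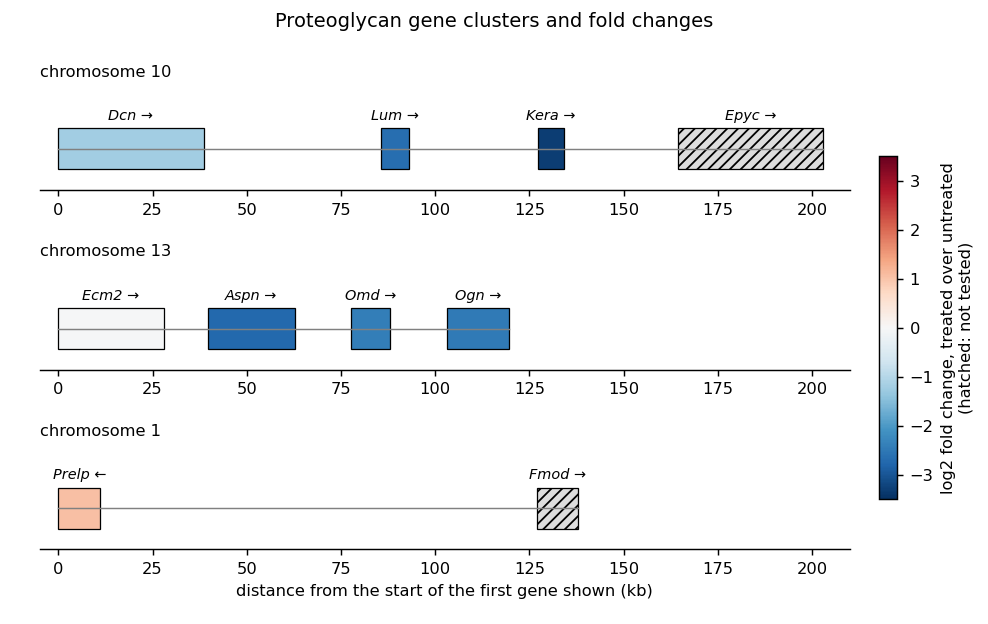
SLRP genes on chromosomes 10, 13 and 1, drawn to scale against the distance in kb from the first gene shown, with arrows for the strand. Colour is the log2 fold change, treated over untreated, and hatched genes were not tested; *Ecm2*, at -0.05, is pale beside *Aspn*, *Omd* and *Ogn*, at -2.43 to -2.76.

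The 250 bases before the gene start that RefSeq gives are shown for the 3 neighbours on chromosome 13, which varied alike, for *Kera*, with the most negative fold change, and for *Bgn*, which did not follow them. The sequences are those of RefSeq on GRCm38.p6 (the mm10 assembly), which held a window for 7 of the 9 members and none for *Lum* or *Dcn*. Capitals mark matches, on either strand, to the TATA box (TATAAA), the CCAAT box (CCAAT), the GC box (GGGCGG), the AP-1 motif (TGANTCA) and the TEAD motif (GGAATG). The windows lie on the plus strand at chr13:49544193-49544442 for *Aspn*, chr13:49582212-49582461 for *Omd*, chr13:49607765-49608014 for *Ogn*, chr10:97606955-97607204 for *Kera* and chrX:73483351-73483600 for *Bgn*. RefSeq and GENCODE place some starts differently, and the whole *Kera* window lies inside that gene as GENCODE annotates it, after the start given above.
Aspn: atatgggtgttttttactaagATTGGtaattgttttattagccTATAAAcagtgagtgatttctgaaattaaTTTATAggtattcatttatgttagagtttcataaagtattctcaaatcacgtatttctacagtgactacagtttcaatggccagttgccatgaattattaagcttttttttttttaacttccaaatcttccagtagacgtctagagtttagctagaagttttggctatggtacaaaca
Omd: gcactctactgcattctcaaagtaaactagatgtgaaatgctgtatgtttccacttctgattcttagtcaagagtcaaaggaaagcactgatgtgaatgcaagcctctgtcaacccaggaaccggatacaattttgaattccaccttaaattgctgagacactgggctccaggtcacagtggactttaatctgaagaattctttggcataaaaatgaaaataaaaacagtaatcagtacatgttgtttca
Ogn: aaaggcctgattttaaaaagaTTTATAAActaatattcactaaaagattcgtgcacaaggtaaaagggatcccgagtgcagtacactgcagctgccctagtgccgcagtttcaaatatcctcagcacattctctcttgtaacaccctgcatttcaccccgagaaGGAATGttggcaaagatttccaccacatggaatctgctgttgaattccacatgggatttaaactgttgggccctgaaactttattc
Kera: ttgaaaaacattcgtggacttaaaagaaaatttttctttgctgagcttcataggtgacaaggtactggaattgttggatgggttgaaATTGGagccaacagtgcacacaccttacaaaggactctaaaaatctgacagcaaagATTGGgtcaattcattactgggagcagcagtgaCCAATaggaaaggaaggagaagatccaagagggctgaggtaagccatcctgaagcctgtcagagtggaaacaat
Bgn: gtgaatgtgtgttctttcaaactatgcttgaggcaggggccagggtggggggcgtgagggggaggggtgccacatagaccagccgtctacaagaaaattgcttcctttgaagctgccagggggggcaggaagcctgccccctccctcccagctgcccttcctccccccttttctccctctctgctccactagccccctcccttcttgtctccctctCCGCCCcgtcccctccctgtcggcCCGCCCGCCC
Counted back from the RefSeq start, *Aspn* had TATA box letters at 207 bases on its own strand and at 178 on the other, and CCAAT letters at 229 on the other strand. *Ogn* had TATA box letters on both strands, at 227 and 229 bases, which overlap each other, and TEAD letters at 86. None of the 5 motifs was found in the window of *Omd*. *Kera* had CCAAT letters at 74, 107 and 163 bases before RefSeq's start, all after the GENCODE start. *Bgn* had GC box letters at 34, 10 and 6 bases, the last pair overlapping, and 64.4% of its window was G or C, against 30.0% for *Aspn*, 38.4% for *Omd* and 42.4% for *Kera*. Of all 32851 such windows, 12.4% held the TATA box letters, 33.8% the CCAAT, 32.7% the GC box, 6.75% the AP-1 and 12.6% the TEAD letters. No motif was shared by the 3 neighbours on chromosome 13, and the matches are descriptions of the letters only.

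Of 9 other SLRP genes 4 passed the filter, and the groups overlapped in each of them. None of the 4 was called by edgeR or DESeq2. *Tsku*, which codes for tsukushi, a secreted inhibitor of several signalling proteins, had 33.4, 40.2 and 33.7 CPM in treated 1, 2 and 3, against 30.3, 23.8 and 34.1 CPM in untreated 1, 2 and 3 (edgeR adjusted p 0.663). *Podnl1* had 15.3, 18.3 and 18.1 CPM in treated and 22.2, 14.2 and 21.8 CPM in untreated tumours (edgeR adjusted p 0.804). *Podn*, which codes for podocan, had 3.39, 5.84 and 10.4 CPM in treated and 7.09, 1.78 and 5.75 CPM in untreated tumours (edgeR adjusted p 0.800). Together with *Ecm2*, their median log2 fold change was 0.11, and it was 0.00 without untreated 2. *Optc*, *Chad*, *Chadl* and *Nyx* had at most 5 counts in any library.

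Related genes were taken from 17 lists of proteoglycans, chain-building enzymes, binding partners and cell markers, with 178 genes tested in all. None passed edgeR's test over all genes, and 19 were higher and 21 lower at an unadjusted p under 0.05. Over all tested genes 3.32% were higher and 4.85% lower at that level, or 9.55% and 8.85% without untreated 2. The list counts below are to be read beside these shares. With all libraries DESeq2 called 3 of the 178 genes, *Mmp13*, *Dmkn* and *Krt10*. Without untreated 2 it called 18 of them, where it called 1.19% of all tested genes lower and 0.81% higher. The values that follow are therefore not called changes in edgeR. DESeq2 calls are named below only for the fit with all libraries.

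Among 7 tested matrix proteoglycans and link proteins, 2 were higher and 2 lower at an unadjusted p under 0.05, and the median log2 fold change was 0.08. Without untreated 2 it was 1 higher and 3 lower, with a median of -0.48. *Hapln1*, a link protein that ties aggrecan-type proteoglycans to hyaluronan, had 3.03, 2.44 and 0.248 CPM in treated 1, 2 and 3, against 10.9, 24.0 and 5.14 CPM in untreated 1, 2 and 3, with a log2 fold change of -2.82 ± 0.85 (-2.11 ± 0.72 when untreated 2 was left out). *Prg4*, the joint lubricant lubricin, lay the other way, with 6.96, 19.3 and 20.6 CPM in treated and 2.41, 2.45 and 5.63 CPM in untreated tumours. The groups of both genes did not overlap, and the edgeR adjusted p was 0.592 for each. On the cell surface, *Sdc2* (syndecan 2) had 161, 179 and 113 CPM in treated tumours, against 328, 659 and 274 CPM in untreated tumours, and *Gpc1* (glypican 1) had 396, 329.9 and 494 CPM in treated and 242, 182 and 278 CPM in untreated tumours. Neither gene's groups overlapped, and both had an edgeR adjusted p of 0.592. Removing the GC and length trend moved the log2 fold change of *Gpc1* from 0.80 ± 0.25 to 0.29 ± 0.32. That of *Sdc2* moved from -1.48 ± 0.38 to -1.16 ± 0.23. Of 10 tested genes in that list 1 was higher and 1 lower at an unadjusted p under 0.05, and its median log2 fold change was 0.10. Without untreated 2 it was 2 higher and 2 lower, with a median of -0.094.

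The enzymes that build the sugar chains lay near 0 as lists. Of 12 tested genes for the linker and sulfate supply, 0 were past an unadjusted p of 0.05 in either direction, with a median log2 fold change of 0.07. *Xylt1*, the xylosyltransferase that starts the chain on the core protein, had 5.71, 4.34 and 4.22 CPM in treated and 2.26, 0.445 and 3.18 CPM in untreated tumours, and *Papss2*, which makes the sulfate donor, had 3.57, 6.65 and 7.82 CPM in treated and 2.72, 0.445 and 4.77 CPM in untreated tumours. Of 12 tested chondroitin and dermatan sulfate enzymes 1 was higher and 0 were lower at that level (median 0.21), and without untreated 2 it was 2 and 0 (median -0.050). *Csgalnact1*, an initiating enzyme of chondroitin, had 7.67, 11.7 and 12.5 CPM in treated and 5.43, 5.57 and 6.98 CPM in untreated tumours. *Dse*, the epimerase that turns chondroitin into dermatan sulfate, had 97.4, 90.4 and 71.5 CPM in treated tumours, against 110.0, 238 and 103 CPM in untreated tumours. Of 9 tested keratan sulfate enzymes 1 was higher and 0 were lower (median 0.06, or -0.050 without untreated 2). *St3gal1*, a sialyltransferase, had 63.0, 69.1 and 67.6 CPM in treated and 46.5, 32.7 and 50.9 CPM in untreated tumours, and *B3gnt7*, which extends keratan chains, had 3.03, 2.04 and 2.23 CPM in treated and 3.17, 4.23 and 3.67 CPM in untreated tumours.

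Of 15 tested collagens and other fibril partners 11 had a log2 fold change above 0, where 50.1% of all tested genes lay below 0. At an unadjusted p under 0.05, 3 were higher and 1 lower, and the median log2 fold change was 0.63. Without untreated 2 it was 4 higher and 3 lower, with a median of 0.42, and *Col5a1* and *Col6a2* then lay below 0, at -0.25 and -0.41. The summed level was not higher in treated tumours, at 27779 to 36721 CPM, against 28037 to 41841 CPM in untreated tumours. *Col5a2*, a chain of type V collagen, had 1685, 1826 and 1060 CPM in treated and 2512, 7044 and 2178 CPM in untreated tumours. Its log2 fold change was -1.36 ± 0.50 (-0.63 ± 0.23 when untreated 2 was left out). *Dpt*, which codes for dermatopontin, a partner of decorin, had 23.2, 28.0 and 28.8 CPM in treated and 20.5, 12.7 and 18.1 CPM in untreated tumours. Of 17 tested matrix-processing genes 5 were higher and 1 lower at that level (median 0.68). Without untreated 2 it was 6 higher and 6 lower (median 0.14). The collagenase *Mmp13* had 71.2, 39.0 and 42.8 CPM in treated and 6.79, 14.9 and 12.1 CPM in untreated tumours, and DESeq2 called it higher (adjusted p 0.000476, against 0.592 in edgeR). *Pcolce2*, an enhancer of procollagen cleavage, had 52.4, 30.3 and 43.9 CPM in treated and 15.2, 15.1 and 26.3 CPM in untreated tumours.

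Of 15 tested growth factors and receptors that SLRP proteins bind or act on, 0 were higher and 2 lower at an unadjusted p under 0.05, with a median log2 fold change of -0.25. Without untreated 2 it was 0 higher and 3 lower, with a median of -0.035. With all libraries the lower pair were the TGF-beta receptors. *Tgfbr2* had 332, 378 and 279.9 CPM in treated and 657, 491 and 494 CPM in untreated tumours, and *Tgfbr1* had 102, 102 and 80.5 CPM in treated and 139.7, 241 and 109 CPM in untreated tumours. In both the groups did not overlap, and the edgeR adjusted p was 0.592.

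**Figure D5:**
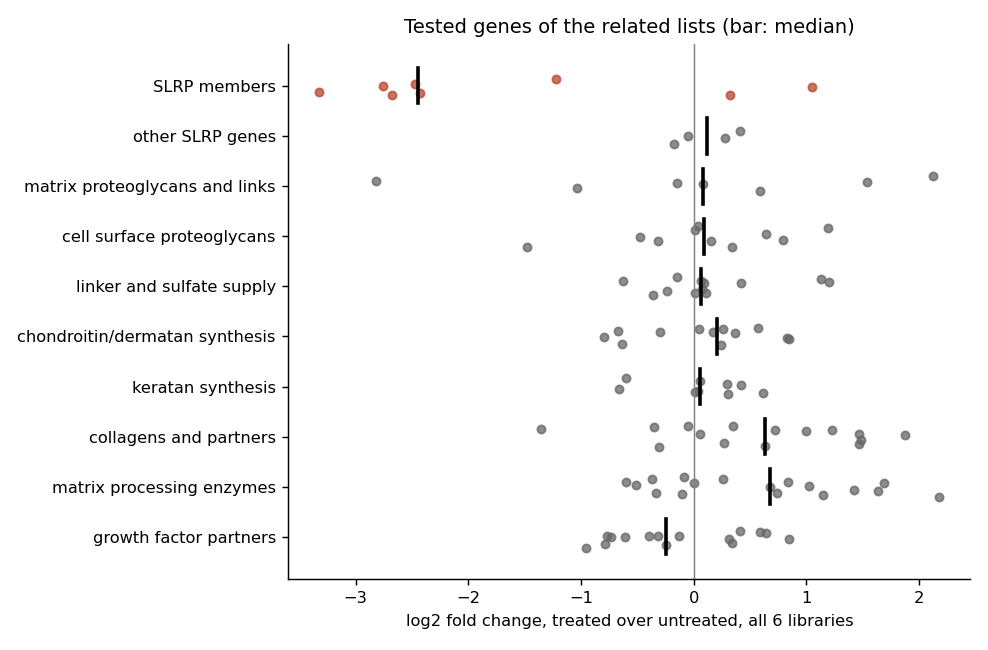
Log2 fold change, treated over untreated, of each tested gene in the proteoglycan lists (points, with vertical jitter) and the median of each list (bar). The median of the 8 SLRP members lies at -2.45 with all libraries, those of the proteoglycan and chain-building lists between 0.06 and 0.21, and those of collagens and matrix processing at 0.63 and 0.68.

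Marker genes of connective tissue and other cell types also differed between libraries. Fibroblast markers were mixed, with 3 of 19 tested higher and 2 lower at an unadjusted p under 0.05 and a median log2 fold change of -0.29. Without untreated 2 it was 2 higher and 5 lower, with a median of -0.15. *Thy1* had 20.9, 35.6 and 41.3 CPM in treated and 15.5, 10.2 and 14.8 CPM in untreated tumours, and *Mfap4*, a microfibril protein, had 79.0, 96.6 and 34.2 CPM in treated and 230.1, 224 and 159.7 CPM in untreated tumours. Tendon and ligament markers, of which 8 of 12 were tested, summed to 693 to 864 CPM in treated and 299 to 487 CPM in untreated tumours. Of the 8, 3 were higher and 1 lower at an unadjusted p under 0.05, and the median log2 fold change was 0.16, or 0.30 without untreated 2. The log2 fold changes of *Cilp* (-0.84 ± 0.31), *Scx* (-0.54 ± 0.34) and *Mkx* (-0.35 ± 0.22), named after their values were seen, lay below 0. *Tnc* (tenascin C), a large part of the sum in treated tumours, had 364, 223 and 358 CPM in treated and 84.4, 44.8 and 152 CPM in untreated tumours, and *Thbs4* had 20.7, 16.01 and 30.4 CPM in treated and 8.45, 8.02 and 12.97 CPM in untreated tumours. Of 15 cartilage and bone markers 5 were tested, *Phex* and *Sox5* among them, none at an unadjusted p under 0.05, and *Matn1* had no count in any library.

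Keratinocyte markers summed to 22.1, 7.46 and 74.2 CPM in treated 1, 2 and 3 and to 1421, 822 and 8.81 CPM in untreated 1, 2 and 3. All 8 tested markers of 14 lay below 0, at a median log2 fold change of -4.56, and *Dmkn* and *Krt10* were called by DESeq2 (adjusted p 0.00804 and 0.0223, against 0.592 in edgeR). The untreated 3 sum lay within the range of the treated tumours. Macrophage markers summed to 760.0 to 1466 CPM in treated and 1325 to 2778 CPM in untreated tumours, with 0 of 12 higher and 6 lower at an unadjusted p under 0.05. *C1qc* had 30.5, 62.4 and 46.6 CPM in treated and 95.7, 184 and 98.5 CPM in untreated tumours, and *C1qb* had 40.0, 70.3 and 51.4 CPM in treated and 109, 196 and 92.7 CPM in untreated tumours. Endothelial and pericyte markers, with all 12 tested, summed to 199 to 307 CPM in treated and 136 to 228 CPM in untreated tumours, *Notch3* and *Kcnj8* having the smallest p. Adipocyte markers, of which *Plin4* and *Fabp4* were tested, summed to 13.02 to 34.6 CPM in treated and 22.3 to 26.9 CPM in untreated tumours. All 12 tested skeletal muscle markers had a log2 fold change above 0, at a median of 1.67, none at an unadjusted p under 0.05. *Mylpf*, a light chain of fast muscle myosin, had 0.714, 0.950 and 43.8 CPM in treated 1, 2 and 3, against 4.68, 5.57 and 0.979 CPM in untreated 1, 2 and 3, and *Actn2* showed the same single high library. Without treated 3 both lay below 0, at -2.11 for *Mylpf* and -3.93 for *Actn2*. The part of these cell types in the SLRP values was not tested.

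Genes outside the family with profiles most like those of 3 members were sought among 10424 genes with at least 5 CPM on average, over the 6 libraries. For *Lum* they were *Gas2*, *Itgbl1* and *Tpsab1*, at root mean square differences of 0.38, 0.40 and 0.40 log2. *Itgbl1* had 109, 116 and 35.7 CPM in treated 1, 2 and 3, against 282, 575 and 157 CPM in untreated 1, 2 and 3. For *Kera* they were *Enpp2*, which codes for autotaxin, *Srpk3* and again *Tpsab1*, a mast cell tryptase, at 0.24, 0.27 and 0.28. *Enpp2* had 8.38, 11.8 and 3.35 CPM in treated tumours, against 48.3, 111 and 30.7 CPM in untreated tumours. *Tpsab1* has a close copy, and counting can split reads between them. For *Dcn* they were *Dusp28*, *Mterf2* and *Arhgap29*, at 0.12, 0.13 and 0.13. Untreated 2 shapes these likenesses, and without it 3 of the 9 choices were still among the nearest 3. These were *Itgbl1* for *Lum* and *Srpk3* and *Tpsab1* for *Kera*. No choice for *Dcn* was kept, with *Dusp28*, *Mterf2* and *Arhgap29* at ranks 28, 5 and 21.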

How the data were processed

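RNA from 6 tumours was sequenced, with samples grouped by their titles. Per the labels' protocols, Trizol RNA (1.3 ug) went into a library kit that keeps the strand. Per the submitters' processing notes, TopHat and the build mm10 were used; the counting program, with its annotation and strand setting, is not given in the sources used here. The deposited values are raw counts per gene symbol. Distances between libraries, centred profiles and likeness used log2 CPM with a prior count of 3. With edgeR 4.0.16 (R 4.3.3), filterByExpr (smallest count 10) kept 12517 of 23183 symbols, TMM factors lay between 0.96 and 1.02, and a quasi-likelihood test compared the groups over all tested genes, without a replicate block. The SE is the fold change over the root of F. GENCODE M21 gave positions, lengths and GC content, with 22148 symbols matched by name and 666 by synonym. Every pair of libraries differed by more than sampling noise (chi-square per gene 5.64 or more). The fit was tested on simulated counts.

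The members and lists were chosen with earlier results of these data known. Named genes are all members, the other tested SLRP genes, the 2 smallest p per list, the 3 nearest to *Lum*, *Dcn* and *Kera*, and genes next to members. Alternatives were other scalings, DESeq2 1.42.0, limma 3.58.1 (voom, with and without quality weights), other filters, each library left out, the block, a GC and length correction (loess span 0.3) and other transcripts. DESeq2 without untreated 2 and the principal transcript were chosen after seeing the data.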

Additional observations from a re-analysis of the deposited data

How the results depend on the processing

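*Aspn*, *Omd*, *Ogn*, *Lum*, *Kera* and *Dcn* kept a negative log2 fold change under every alternative run. The members' median was -1.56 with limma-voom and quality weights, -1.69 after the GC and length correction, -1.35 with DESeq2 without untreated 2 and -2.81 to -1.35 when 1 library was left out; *Bgn* lay at -0.012 with quality weights. The number of genes past the threshold was 46 with DESeq2, 257 with DESeq2 without untreated 2, 2 with quality weights and 0 to 4 when 1 library was left out. Without adjustment 1023 genes had p under 0.05, against 2720 with quality weights, 1583 after the GC and length correction, 2054 with DESeq2 without untreated 2 and 313 to 2362 when 1 library was left out. Of the related genes DESeq2 called 3, or 18 without untreated 2, and edgeR 0 to 1 without 1 library. Per length, as means over all 6 libraries of both groups, the shortest transcript gave 1106 CPM per kb for *Dcn*, 205 for *Bgn* and 1.86 for *Fmod*. The principal one gave 159.8 for *Dcn* as such a mean. The shortest is 254 bases long for *Dcn*. The likeness kept 3 of 9 genes without untreated 2. *Ecm2* lay at 0.23 after the GC and length correction. *Actn2* lay at -0.54 with limma-voom. Leaving out 1 library put *Ecm2* at -0.27 to 0.11, *Podn* at -0.091 to 0.75, *Actn2* at -3.93 to 3.05, *Mylpf* at -2.11 to 2.62 and *Fabp4* at -0.47 to 0.61. The causes were not tested.

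The deviations of same-numbered libraries from their group means had correlations of -0.18, -0.11 and 0.11. Those of differently numbered libraries lay between -0.22 and 0.24. With 3 libraries per group and untreated 2 standing apart, these values cannot decide whether the numbers pair the samples. With the replicate block edgeR called 0 genes, 988 were at an unadjusted p under 0.05, the members' median was -2.22, and *Actn2* and *Mylpf* lay at -0.19 and -0.24. The block lowered the SE of *Aspn* from 0.86 to 0.41 and raised that of *Bgn* from 0.38 to 0.43. Depth limits *Kera* and *Fmod* most, with 1 to 100 counts per library.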
